A study of Mus musculus with 2 samples.

Results

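The genes described here encode the proteins of the mitochondrial ribosome, and were taken as every gene whose symbol is Mrpl or Mrps followed by a number. Of 19938 genes on the arrays with a probe set annotated to exactly 1 symbol, 77 were members: 48 Mrpl genes, named for the large subunit, and 29 Mrps genes, named for the small subunit. Their 85 probe sets were reduced to the one with the highest mean per gene. RNA came from regenerating tibialis anterior, a mouse shin muscle, taken 7 days after 50 µl of 10 µM cardiotoxin, a venom peptide that kills muscle fibres, was injected into the right leg. The wild type group (Mef2a +/+) and the knockout group (Mef2a -/-), both of 129Sv/C57BL6 background, of both sexes and aged 2 to 4 months, were each 1 pool of RNA from 5 mice on 1 array, so there was no replicate error, no test and no p-value. The deleted part of Mef2a, which encodes a muscle transcription factor, is not named in the labels, and the gene's probe set gave 8.92 for wild type and 9.06 for knockout. It does not check the labels, on which each direction below rests.

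The mitochondrial ribosome translates the few messenger RNAs that the mitochondrial genome encodes, nearly all of which are for core subunits of the respiratory chain and the ATP synthase. Its RNAs are made inside the organelle, but all of its proteins are encoded in the nucleus, made on cytosolic ribosomes and imported. Muscle fibres carry many mitochondria, and the nuclear factors NRF1 and GABP, with the PGC-1 coactivators and the receptor ERR alpha, are known regulators of mitochondrial genes.

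Mitochondrial ribosomal protein genes were mostly a little lower in the knockout pool. All 77 were measurable, which means that the higher of a gene's 2 log2 values reached 4.395, the midpoint of the values in the whole table. Of these, 52 (67.5%) were lower by any amount, 24 were higher and 1 was equal, whereas 44.5% of the 11787 measurable genes were lower. The median difference of the members, knockout minus wild type, was -0.13 on the log2 scale, with quartiles of -0.22 and 0.04, against 0.03 for all measurable genes, with quartiles of -0.15 and 0.23. The differences were small: 4 members (5.19%) were lower by more than a limit of 0.32 on the log2 scale, which 10.3% of measurable genes passed, and 3 (3.90%) were higher by more than that, as 16.7% of measurable genes were. None was 1.5-fold lower or higher, against 1.90% and 6.45% of measurable genes. The count past the limit on the lower side depended on the scaling. With median-centred differences it was 10 members (12.99%, against 11.7% of measurable genes), and with the loess trend over level removed it was 12 (15.6%, against 10.9%).

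The large and small subunits had similar medians. Among the 48 large subunit genes 33 (68.8%) were lower, with a median difference of -0.15 and quartiles of -0.23 and 0.04. Among the 29 small subunit genes 19 (65.5%) were lower, with a median of -0.12 and quartiles of -0.19 and 0.04. The medians differed by -0.03, large minus small, which was less than the width between the quartiles of either subunit (0.28 and 0.23). Whether the subunits differ could not be tested with 1 array per genotype. In the plot of all members by subunit both sets run from clearly lower genes through a dense middle to a few higher genes.

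**Figure D1:**
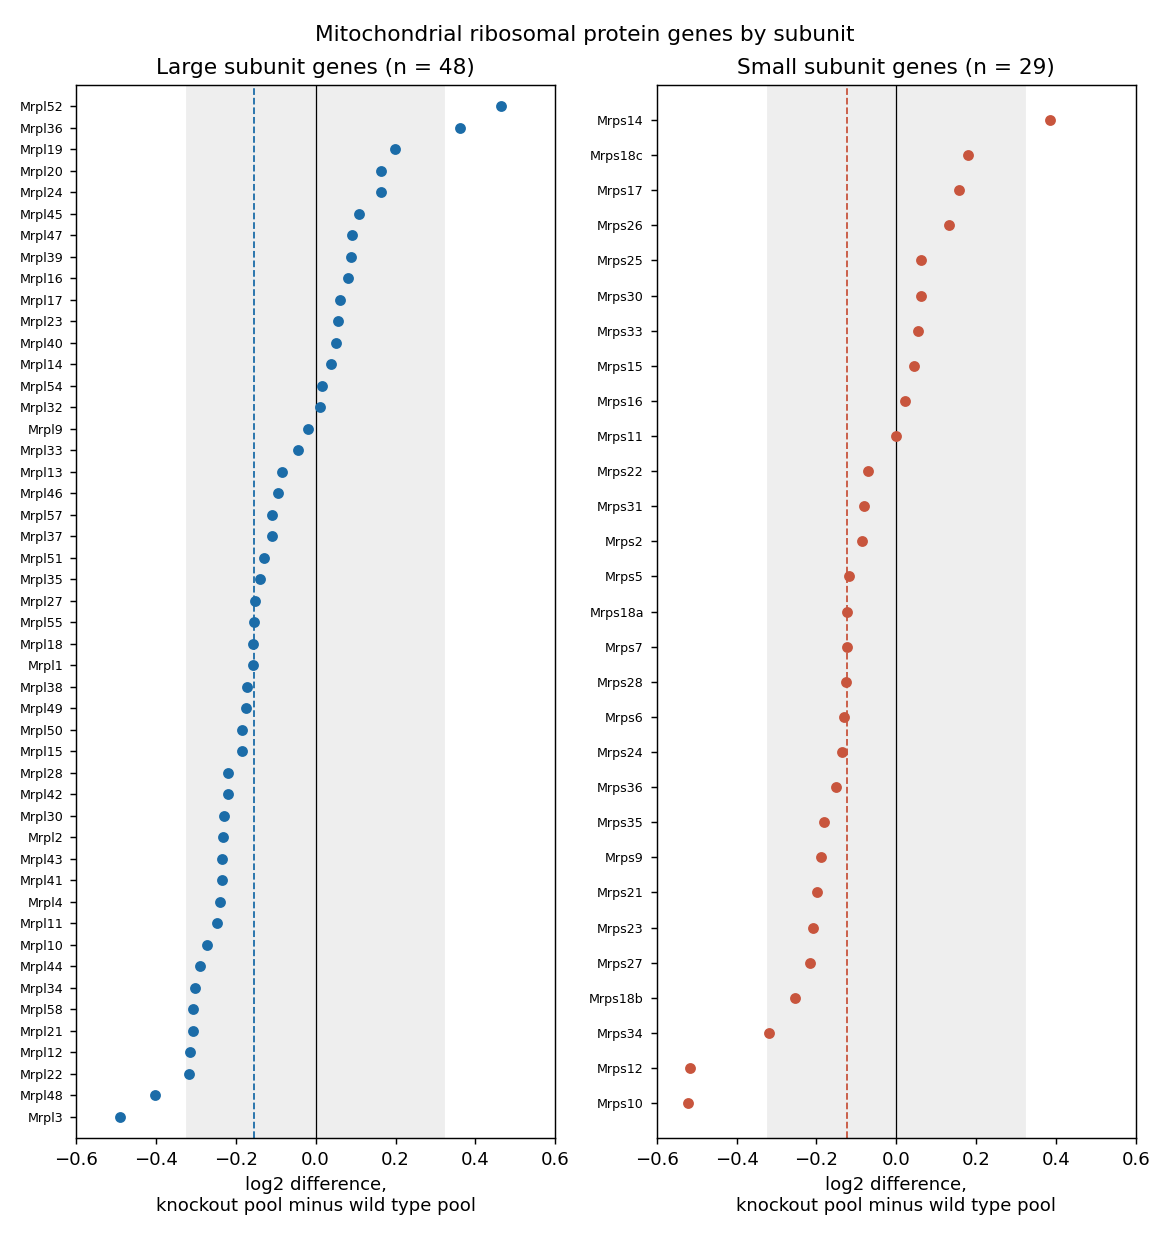
Each point is 1 gene, placed on the x axis by its log2 difference (knockout pool minus wild type pool) and sorted within its subunit. The left panel has the 48 large subunit genes and the right panel the 29 small subunit genes. Dashed lines mark the subunit medians of -0.15 and -0.12, and the grey band spans differences within 0.32, which hold all but 7 members.

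The lowest members came from both subunits. Mrps10, a protein of the head of the small subunit, read 7.13 in wild type and 6.60 in knockout, a difference of -0.52 or 1.44-fold lower. For Mrps12, whose bacterial counterpart sits in the decoding centre, the values were 5.11 and 4.60, a difference of -0.52 or 1.43-fold lower. Its knockout value was the lowest of any member and close to 4.395, the level that measurable genes had to reach. Mrpl3, whose bacterial counterpart reaches towards the peptidyl transferase centre, read 7.30 and 6.82 in the same order and was 1.40-fold lower. These 3 genes and Mrpl48, a large subunit protein with no bacterial counterpart, at 7.27 and 6.87 (1.32-fold lower), were the members past 0.32 on the lower side. RefSeq names a pseudogene of Mrpl48, and whether the gene's probe set also detects that copy was not checked.

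The next 6 lower members lay between -0.32 and -0.30 on the log2 scale, just inside the limit. Mrps34, a small subunit protein without a bacterial counterpart, read 7.30 in wild type and 6.98 in knockout. Mrpl22, a protein of the tunnel exit, read 5.70 and 5.39, and Mrpl12, which forms the flexible stalk that recruits translation factors, 7.51 and 7.20. Mrpl58, a peptidyl-tRNA hydrolase that frees stalled ribosomes and is also built into the large subunit, read 6.70 and 6.40. The remaining 2 were Mrpl21 (6.41 and 6.11) and Mrpl34 (6.48 and 6.18), both with bacterial counterparts.

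The higher members were fewer and again came from both subunits. Mrpl52, a large subunit protein without a bacterial counterpart, read 6.29 in wild type and 6.75 in knockout, a difference of 0.46 or 1.38-fold higher. Mrps14, of the head of the small subunit, read 6.18 and 6.56 and was 1.31-fold higher. Mrpl36, one of the smallest ribosomal proteins, read 6.62 and 6.98 and was 1.28-fold higher. The next 7, Mrpl19, Mrps18c, Mrpl20, Mrpl24, Mrps17, Mrps26 and Mrpl45, were higher by 0.11 to 0.20 on the log2 scale, all inside the limit. The plot of difference against mean level sets the members among all measurable genes.

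**Figure D2:**
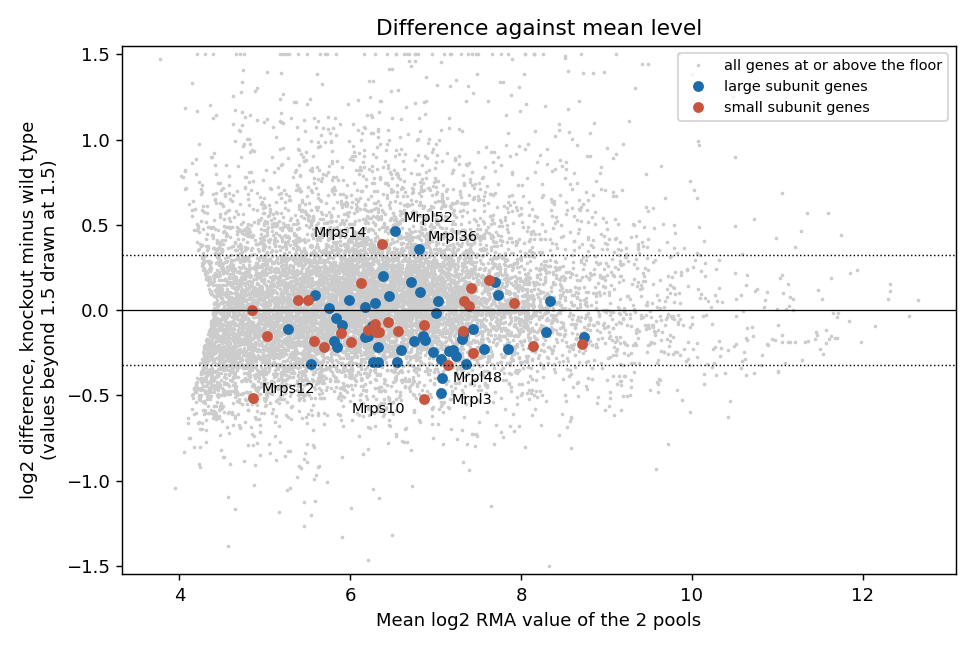
The x axis is the mean log2 RMA value of the 2 pools and the y axis the log2 difference, knockout minus wild type. Grey points are the 11787 measurable genes, with differences beyond 1.5 drawn at 1.5, and dotted lines mark 0.32 on either side. The 77 members (blue, large subunit; red, small subunit) lie between -0.52 and 0.46, and 52 of them lie below 0.

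Promoters of 6 members are shown because they hold the features compared below: Mrps12 and Mrpl3 from the lowest members, Mrpl12 from the lower members with an NRF1 match, Mrpl52 and Mrpl36 from the highest, and Mrps11, which starts back to back with another member. Each line gives the 250 bases before the start site, 5′ to 3′ on the gene's strand, from RefSeq on GRCm38.p6, with matches to the motifs searched in capitals. Capitals mark GABP in Mrpl3 and Mrpl52, NRF1 in Mrpl12, an E-box and then YY1 in Mrpl36, and YY1 in Mrps11. Mrps12 (chr7:28741822-28742071, minus strand) has none in this stretch, its GABP match starting at base 2 of the transcript. The others are Mrpl3 (chr9:105053018-105053267), Mrpl12 (chr11:120484387-120484636), Mrpl52 (chr14:54426659-54426908), Mrpl36 (chr13:73330759-73331008) and Mrps11 (chr7:78782881-78783130), all on the plus strand. The Mrpl36 stretch precedes the start given in RefSeq's promoter table, which lies inside the gene's annotated span, from base 73328503 to 73332178.
Mrps12: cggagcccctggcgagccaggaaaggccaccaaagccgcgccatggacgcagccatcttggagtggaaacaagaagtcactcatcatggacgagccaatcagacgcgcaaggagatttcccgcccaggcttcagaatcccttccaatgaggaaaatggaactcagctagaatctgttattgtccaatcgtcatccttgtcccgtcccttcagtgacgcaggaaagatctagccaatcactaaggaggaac
Mrpl3: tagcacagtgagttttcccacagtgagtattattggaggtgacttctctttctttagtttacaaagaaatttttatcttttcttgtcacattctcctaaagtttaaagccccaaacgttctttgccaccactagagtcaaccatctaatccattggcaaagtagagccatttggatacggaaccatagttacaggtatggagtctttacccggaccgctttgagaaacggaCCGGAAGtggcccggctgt
Mrpl12: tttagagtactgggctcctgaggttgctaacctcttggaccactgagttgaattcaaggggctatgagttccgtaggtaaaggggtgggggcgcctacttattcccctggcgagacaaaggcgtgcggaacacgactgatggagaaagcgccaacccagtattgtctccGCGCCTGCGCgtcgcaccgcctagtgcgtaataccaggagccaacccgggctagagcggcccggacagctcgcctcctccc
Mrpl52: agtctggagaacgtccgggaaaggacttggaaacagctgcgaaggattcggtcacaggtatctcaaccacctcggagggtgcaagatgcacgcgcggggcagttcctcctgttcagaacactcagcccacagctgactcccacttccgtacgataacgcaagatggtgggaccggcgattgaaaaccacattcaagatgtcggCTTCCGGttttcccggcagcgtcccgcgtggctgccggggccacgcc
Mrpl36: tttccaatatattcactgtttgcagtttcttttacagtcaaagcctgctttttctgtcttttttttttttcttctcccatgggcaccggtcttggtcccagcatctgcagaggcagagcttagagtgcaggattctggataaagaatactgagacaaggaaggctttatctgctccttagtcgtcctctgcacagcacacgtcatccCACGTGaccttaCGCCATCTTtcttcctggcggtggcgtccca
Mrps11: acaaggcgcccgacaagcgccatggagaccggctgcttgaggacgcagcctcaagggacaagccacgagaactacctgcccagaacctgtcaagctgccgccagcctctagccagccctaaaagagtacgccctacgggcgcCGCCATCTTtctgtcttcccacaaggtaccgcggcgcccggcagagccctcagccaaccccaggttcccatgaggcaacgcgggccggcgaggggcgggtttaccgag

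Promoter windows, from 250 bases before to 50 bases after the start site, were found for 68 of the 77 members. Those of Mrps34, Mrpl4, Mrpl15, Mrps35, Mrpl38, Mrps28, Mrpl13, Mrpl54 and Mrpl19 were not in the table. Each motif was searched on both strands. The GABP letters CCGGAAG were in 25 of the 68 members (36.8%) and in 9.93% of the 27025 genes with a window, or 12.9% of 17491 protein-coding genes. The NRF1 letters, GCGCA and GCGC with any 1 base between, were in 13 members (19.1%), against 5.19% of all genes and 7.17% of coding genes. The YY1 letters AAGATGGCG were in 8 members (11.8%), against 1.64% and 2.14%. At least 1 of these 3 motifs was in 40 members and more than 1 in 6. The other motifs were at or under their general share: the E-box CACGTG, which reads the same on both strands, in 5 members (7.35%, against 8.09% of all genes), a MEF2 site in 2 (2.94%, against 3.70%) and the ERR alpha letters TCAAGGTCA in 0, against 0.466%. A match is a run of letters and not a measured binding site.

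Of the 10 lowest members, 9 had a window and 7 of these had the GABP letters, which 36.8% of all members with a window carried. The 10 were picked by the same differences, so this contrast is a description only. The motifs were chosen with the members' values known. Of the 4 members past the limit on the lower side, Mrps12, Mrpl3 and Mrpl48 had a match, and of the next 6 Mrpl22, Mrpl21, Mrpl58 and Mrpl34 did, while Mrpl12 did not and Mrps34 had no window. Of the 25 members with a match, 19 were lower, with a median difference of -0.16, and of the 43 without, 26 were lower, with a median of -0.11. Of the 10 highest members, Mrpl52, Mrps18c and Mrps26 also had the match, Mrpl19 had no window and the others had no match. Mrpl52, the highest member, had it at 2 places of its window when the bases after the start are counted. With the NRF1 letters 7 of 13 were lower and the median was -0.02, from Mrpl12 at -0.32 to Mrps26 at 0.13, while without them 38 of 55 were lower and the median was -0.13. With the YY1 letters 6 of 8 were lower and without them 39 of 60, both with a median of -0.13. The 5 members with an E-box were Mrpl2 (-0.23), Mrpl37 (-0.11), Mrpl20 (0.16), Mrps18c (0.18) and Mrpl36 (0.36), and the 2 with a MEF2 match were Mrpl48 (-0.40) and Mrpl1 (-0.16). These medians are descriptions of 2 arrays without a test.

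Genes of proteins kept from the bacterial ancestor and of those gained by mitochondria had medians that were equal to 2 decimals. Of 46 members with a bacterial counterpart 30 were lower (median -0.13), and of 30 without one 21 were lower (median -0.13). Mrps18a and Mrps18b, which have a bacterial relative but sit elsewhere in the particle, were counted with the latter. Mrps36 belongs to neither, being now known as a part of the oxoglutarate dehydrogenase complex. It read 5.11 in wild type and 4.95 in knockout. Structures of the mammalian particle place the products of Mrps30 (5.36 and 5.42, in the same order) and Mrps18a (6.62 and 6.49) in the large subunit in spite of their names. With subunits assigned by place, and with the ribosomal proteins of other names added, the medians were -0.14 for the large and -0.12 for the small subunit.

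The medians of some functional sites stood on different sides of 0, over few genes each. Beside the counts below, 67.5% of all members and 44.5% of measurable genes were lower. Around the peptidyl transferase centre, where peptide bonds are made, 4 of 5 genes were lower, with a median of -0.23: Mrpl3, Mrpl4 (7.28 in wild type, 7.04 in knockout), Mrpl2 (7.96 and 7.73) and Mrpl27 (6.93 and 6.78), whereas Mrpl16 was higher (6.41 and 6.49). The bacterial counterpart of Mrpl4 also lines the tunnel. Of the 4 stalk genes with a value, 3 were lower: Mrpl12, Mrpl10, which anchors the stalk (7.37 and 7.10), and Mrpl11, at its base (7.10 and 6.85). Mrpl54 read 6.17 and 6.18. The fifth stalk gene, Mrpl53, shares its only probe set with Ccdc142, and that probe set differed by -0.21.

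At the rim of the exit tunnel, where new chains leave towards the inner membrane, 5 of 6 genes were higher, with a median of 0.08. These were Mrpl24 (7.61 and 7.78), Mrpl45, the anchor to the membrane (6.77 and 6.87), Mrpl47 (5.54 and 5.63), Mrpl17 (5.95 and 6.02) and Mrpl23 (8.32 and 8.37), and the exception was Mrpl22 at -0.32. The 5 higher genes differed by 0.06 to 0.16, inside the quartiles of all measurable genes, -0.15 and 0.23. Differences of this size cannot be set against any replicate error. The value of Mrpl47 depended on its probe set, the other one differing by -0.42 with both values below 4.395. In the small subunit, along the path of the messenger RNA, Mrps12 was lower by 0.52 on the log2 scale, Mrps7 read 7.38 and 7.26, and Mrps11 read 4.85 in both pools.

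The 3 genes of the Mrps18 family, which descend from 1 bacterial gene, did not go the same way. Mrps18b read 7.56 in wild type and 7.31 in knockout, a difference of -0.25, and Mrps18a differed by -0.12. Mrps18c, which takes the place of the bacterial protein, read 7.54 and 7.72, a difference of 0.18. Of 8 members with more than 1 probe set, 6 kept their direction in both: Mrpl23 (0.06 in each), Mrpl27 (-0.23 and -0.15), Mrpl41 (-0.21 and -0.23), Mrpl51 (-0.16 and -0.13), Mrps33 (0.02 and 0.06) and Mrps5 (-0.33 and -0.12). Besides Mrpl47, Mrps36 did not (0.02 and -0.15). The differences of the Mrpl23 probe sets were equal to 5 decimals. The Mrpl27 probe set at -0.23 and the Mrpl41 probe set at -0.23 held the same widely shared difference. Agreement in these 3 genes may therefore not be independent. RefSeq names pseudogenes of Mrpl23, Mrpl27, Mrpl48 and Mrps36, so their probe sets may read more than 1 locus.

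Some members carried a difference that many other probe sets had too. Equal to 5 decimals, the difference of Mrpl21 was held by 181 other probe sets of the table, that of Mrpl41 by 112, that of Mrps23 by 212 and that of Mrpl49 by 15. The difference of exactly 0 of Mrps11 was held by 1960. Most of these probe sets read below 4.395 in both pools, with a median level between 2.07 and 3.48. How such ties arose was not tested, and these 5 values may not be specific to their genes. Such ties, with at least 10 other probe sets, were held by 6.49% of members and 5.87% of measurable genes, and without the 5 members 66.7% were lower and the median was -0.13.

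Many members share their promoter region with another gene. A gene on the opposite strand started within 1000 bases upstream, pointing away, for 26 of 68 members (38.2%), against 12.3% of all 27025 genes with a window and 13.2% of the coding ones. The spacing ran from 8 to 935 bases. Mrpl46 and Mrps11 start 42 bases apart and read 6.30 against 6.21 and 4.85 against 4.85 in the wild type and knockout pools. Among the neighbours were mitochondrial genes: Sars2, the mitochondrial seryl-tRNA synthetase, 147 bases from Mrps12, Twnk, the helicase of mitochondrial DNA, 116 bases from Mrpl43, Ptcd2, a mitochondrial RNA-processing factor, 108 bases from Mrps27, and Ndufb5, a complex I subunit, 308 bases from Mrpl47.

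Neighbours had the sign of the member in some pairs and the opposite sign in others. Beside the counts below, 44.5% of measurable genes were lower, and their median was 0.03. In 18 pairs with a measurable neighbour that is no member itself, 14 members were lower, with a median of -0.18, while 10 neighbours were lower, 6 higher and 2 equal, with a median of -0.05. The signs were the same in 7 pairs and opposite in 9, or 8 and 8 with the mean of all probe sets of each gene, where Mrpl47 was at -0.16. Some signs rest on very small differences, such as 0.01 for Mrpl32 and -0.04 for its neighbour Psma2. Mrps12 and Sars2 were both lower, Sars2 reading 5.95 in wild type and 5.69 in knockout, and so were Mrps27 and Ptcd2 (6.39 and 6.15). Opposite signs were seen for Mrpl49 and Fau, which encodes a cytosolic ribosomal protein (8.99 and 9.31), for Mrpl18 and the chaperonin gene Tcp1 (9.29 and 9.45), for Mrpl2 and the kinesin light chain gene Klc4 (6.06 and 6.29) and for Mrpl47 and Ndufb5 (9.38 and 9.12). Paired members had a median of -0.14, with 19 of 26 lower, while among the 42 unpaired members with a window the median was -0.10 and 26 were lower.

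**Figure D3:**
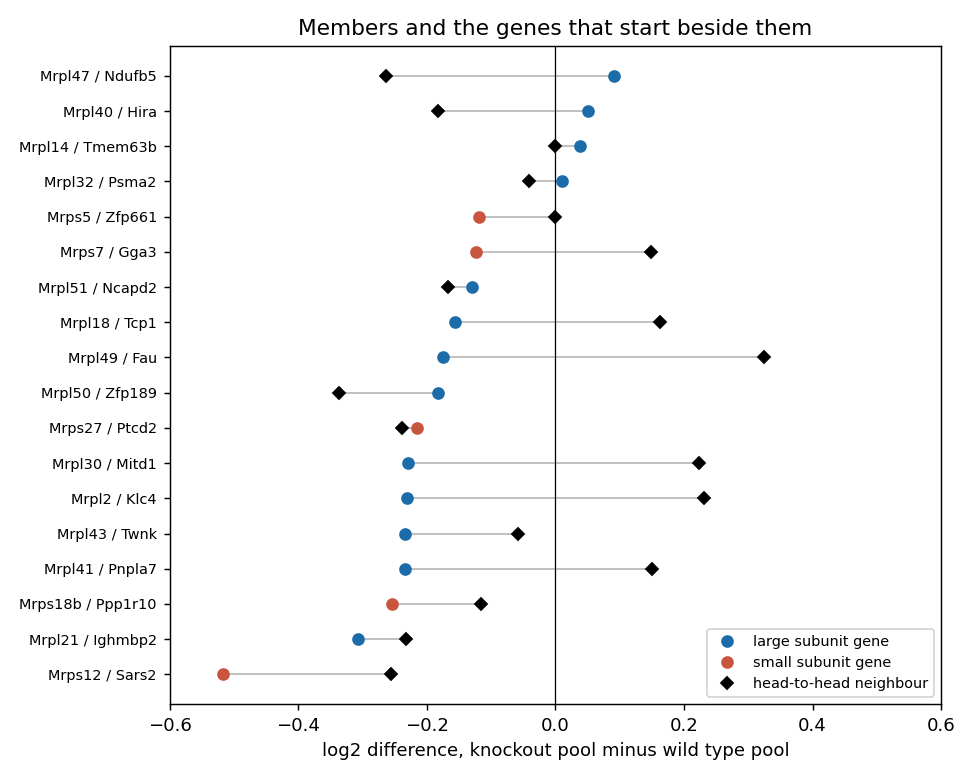
Each row is a member and the gene that starts within 1000 bases of it on the opposite strand, for the 18 pairs with a measurable neighbour outside the group. Circles are members (blue, large subunit; red, small subunit) and black diamonds the neighbours, by log2 difference, knockout pool minus wild type pool. Members lie below 0 in 14 rows and neighbours in 10.

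Genes that act with the mitochondrial ribosome were lower by similar or smaller amounts. Beside the counts in this paragraph, 44.5% of measurable genes were lower, and their median was 0.03. Of its 4 measurable proteins with other names, Ptcd3 read 6.83 in wild type and 6.59 in knockout, Gadd45gip1 5.45 and 5.39, and Dap3 6.26 and 6.21, while Chchd1 was equal (5.62). Of 23 assembly factors 15 were lower (median -0.07) and 2 passed the limit (8.70%, against 10.3% of measurable genes), the pseudouridine synthase gene Rpusd4 (5.46 and 5.01) and the GTPase gene Noa1 (5.89 and 5.46). Of 17 translation factors 15 were lower (median -0.10), led by Mtif3, an initiation factor (6.20 and 5.72, 1.40-fold lower), and Oxa1l, which inserts new proteins into the inner membrane (8.22 and 7.92). Of 18 mitochondrial aminoacyl-tRNA synthetase and amidotransferase genes 14 were lower (median -0.14), with Mars2 at -0.31, Lars2 at -0.27 and Ears2 at 0.29 the furthest from 0. Of the genes of mitochondrial DNA transcription and replication 7 of 13 (53.8%) were lower, with a median of -0.01. Of the protein import genes 14 of 24 (58.3%) were lower, with a median of -0.03, although Tomm20, an import receptor, was 1.26-fold higher (7.22 and 7.55).

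The respiratory chain, whose core the mitochondrial ribosome makes, had a lower median than the ribosome, a difference that was not tested. Of 76 nuclear-encoded subunits and linked genes of complexes I to V 69 were lower (90.8%, against 44.5% of measurable genes), with a median of -0.23, and 16 passed the limit (21.1%, against 10.3%). By complex the medians were -0.24, -0.25, -0.23, -0.17 and -0.22 for I to V. Among the lowest were Ndufb10 (5.84 and 5.32), Ndufa11 (8.20 and 7.69) and Ndufa8 (8.91 and 8.41), and Cox6a1 was the highest (6.95 and 7.30). Citric acid cycle genes were lower in 11 of 11 cases, with a median of -0.19. Of the genes that mitochondrial DNA itself encodes, COX2 (11.50 and 11.56) and ND3 (10.99 and 11.00), chosen after their values were seen, were the ones with a probe set of 1 symbol, and they differed by 0.06 and 0.01.

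Cytosolic ribosomal protein genes went the other way. Of 53 such genes 12 (22.6%) were lower, against 44.5% of measurable genes, and 40 were higher. The median was 0.13, against 0.03 for measurable genes. None passed the limit in either direction, as 10.3% of measurable genes did on the lower side and 16.7% on the higher. Rps15 (0.31) and Rpl8 (0.30) were the highest and Rplp2 (-0.32) the lowest. The medians of the cytosolic and the mitochondrial ribosome thus had opposite signs in these arrays, a difference that was not tested. Many cytosolic ribosomal genes have processed copies, which makes single values uncertain.

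**Figure D4:**
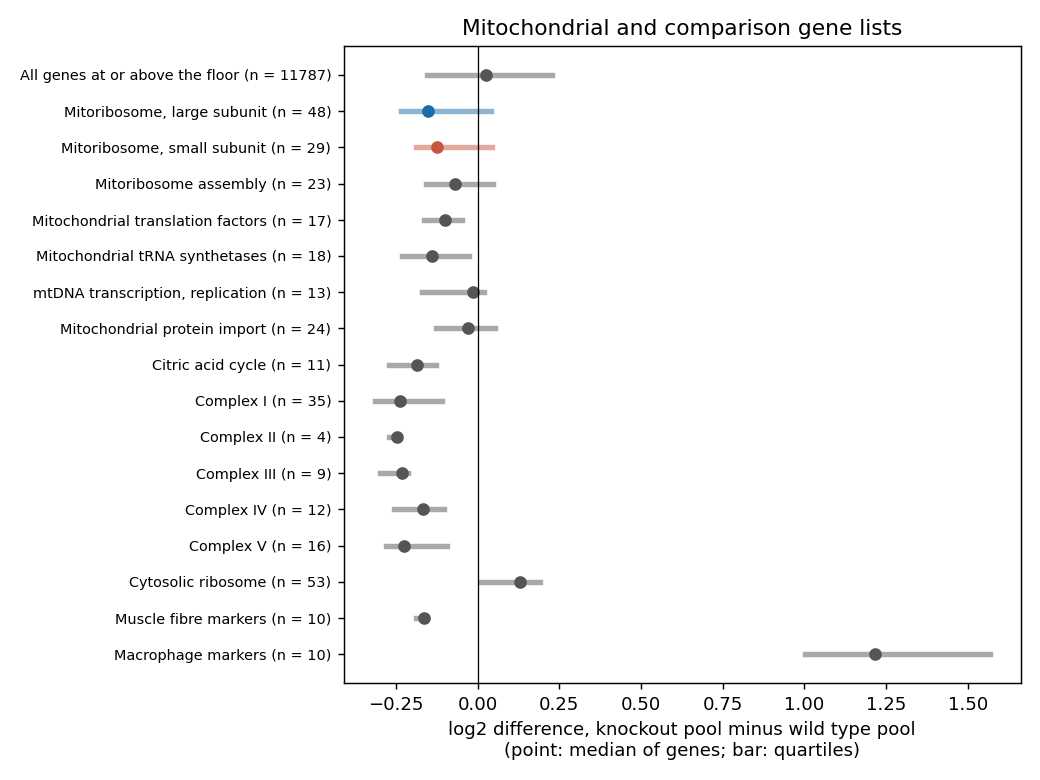
Points are medians and bars the quartiles, over the genes of a list, of the log2 difference (knockout pool minus wild type pool). Both mitoribosome subunits lie below 0, at -0.15 and -0.12, between the import genes at -0.03 and complexes I to III and V at -0.25 to -0.22, while the cytosolic ribosome lies at 0.13 and macrophage markers at 1.22.

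Of 9 regulators of mitochondrial genes 5 were lower (55.6%, against 44.5% of measurable genes), 3 higher and 1 equal, with a median of -0.02. Esrra, the gene of ERR alpha, read 6.70 in wild type and 6.09 in knockout, 1.53-fold lower. Ppargc1a, the PGC-1 alpha gene, read 6.14 and 5.63, 1.42-fold lower. The genes of the other PGC-1 coactivators were closer to 0, Ppargc1b at -0.08 and Pprc1 reading 6.02 in both pools. The genes of NRF1, GABP and YY1 differed less than Esrra and Ppargc1a, with Nrf1 at -0.13, Gabpa at -0.02, Gabpb1 at 0.21 and Yy1 at 0.10. Myc, a factor that binds E-boxes and drives ribosome genes, read 6.09 and 6.45, 1.28-fold higher. A level of messenger RNA does not show the activity of a factor.

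Markers of several cell types were measured in the same RNA. All 10 macrophage markers were at least 1.5-fold higher in the knockout pool, against 6.45% of measurable genes. Their median difference was 1.22, and their summed level after undoing the log was 4073 in wild type and 9369 in knockout. All 10 markers of mature fast fibres were lower, against 44.5% of measurable genes. They were lower by 0.04 to 0.31 on the log2 scale with a median of -0.17, and summed to 35242 and 31761. Of 4 markers of young fibres 3 were lower and 1 higher, with a median of -0.25. Myh8, the neonatal myosin, was 1.54-fold lower (10.73 and 10.10) and Myh3 was 1.35-fold lower (9.82 and 9.39), while Myog differed by -0.06 and Chrna1 by 0.15. The mature fibre markers, which define the labelled tissue, read 10.10 or more in both pools. None of the measured markers of neutrophils (5), lymphocytes (4) or red cell precursors (2) reached 4.395, and fibroblast and endothelial markers had medians of 0.12 and -0.02. The part that these shifts play in the lower values of the mitochondrial ribosome was not tested, and in bulk RNA fewer cells of a type and less RNA per cell cannot be told apart.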

How the data were processed

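The members, gene lists and limits were chosen with earlier results of these data known, and the motif letters after the values were seen. RNA was extracted with Trizol and labelled with biotin, per the labels' protocols. The authors deposited log2 values, made in Affymetrix Expression Console by the RMA method according to the submitters' processing notes. RMA equalises the distributions of the arrays, so a change shared by most genes cannot be seen. Neither settings nor versions are given in the sources used here.

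Of 35557 probe sets, 21789 had 1 gene symbol, 1621 several and 12147 none in the platform annotation. All 77 member symbols matched RefSeq (GRCm38.p6) by gene identifier. Lists are described by counts past 0.32 on the log2 scale and past 1.5-fold and by medians, beside those of all measurable genes. The number of arrays, 2, limits the precision. Named members were the 10 lowest, the 10 highest, those with several probe sets, the Mrps18 genes, Mrps30, Mrps36 and those at fixed functional sites, and in other lists up to 3 genes. Some further genes of these lists, and the neighbours of members, were named after their values were seen. The steps were tested on simulated data. Python 3.11.15, pandas 2.3.3, numpy 2.4.6, statsmodels 0.14.6 and matplotlib 3.10.9 were used.

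Alternatives were differences centred on the median, a loess trend on mean level taken out (span 0.3), the mean of all probe sets, probe sets with several symbols, no floor or one of 6.18 (the 75th percentile), and subunits by place in the ribosome. Leaving out members with widely shared differences, or with a named pseudogene, was added after seeing the data, as were the signs of pairs from averaged probe sets and the shares of measurable genes past the limit under other scalings.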

Additional observations from a re-analysis of the deposited data

How the results depend on the processing

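The direction of the group did not depend on the settings tried. Over the main setting and 9 alternatives the median difference of the members ran from -0.18 to -0.13, that of the large subunit from -0.20 to -0.14, that of the small subunit from -0.17 to -0.10, and large minus small from -0.05 to -0.02. A shift of 0.1 on the log2 scale was taken as a move. The share of lower members ran from 66.7% to 76.6%. Counts past a limit moved: members lower by more than 0.32 were 4 as reported, 10 with median-centred differences and 12 with the loess trend removed, and at least 1.5-fold lower 0 as reported and 1 (Mrps10, at -0.59) with the loess trend removed. Centring lowers each difference by 0.03, and 6 members lie just inside the limit. The cause of the larger move with the loess trend was not tested. With the mean of all probe sets Mrps5 was at -0.22 and Mrpl47 at -0.16. No paired analysis was possible because each genotype has 1 array and the labels carry no replicate numbers, and leaving out a replicate was not possible for the same reason. No probe-level signals over background were used here.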

Other observations

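More members lay just inside the limit of 0.32 on the log2 scale on the lower side than on the higher side. The share of measurable genes in the same range was not counted. Mrps34, Mrpl22, Mrpl12, Mrpl21, Mrpl58 and Mrpl34 lay between -0.32 and -0.30, whereas on the higher side the member next to the 3 past the limit, Mrpl19, was at 0.20.

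Of all 35557 probe sets, 20.6% had a difference that at least 10 other probe sets held to 5 decimals, against 5.87% of measurable genes. A probe set of Mrpl27 that was not used, for its lower mean, had the same difference as Mrpl41, -0.23.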
